A study of Bos taurus with 14 samples.

Results

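Insulin-like growth factor 1 (IGF1, ENSBTAG00000011082) and the growth hormone receptor (GHR, ENSBTAG00000001335) were followed across 14 RNA-seq libraries of endometrium, the inner lining of the uterus, from cattle. They were chosen by their Ensembl cattle identifiers, and both were among the 15524 genes listed, so that 2 of 2 members were measured and both passed the filter on low counts. The libraries were made from polyadenylated RNA of the ipsilateral uterine horn, at a time labelled day 7 oestrus and taken here as day 7 of the cycle. All 14 shared that tissue and time, and no treatment or untreated control group was given. Of the libraries, 7 were labelled Fert+ (high fertility) and 7 Fert- (low fertility), and the study compared gene expression between these groups. Breed, age and lactation of the cows are not given in the labels' sample fields, nor is it stated there that the 14 libraries are 14 cows, so the p-values below describe variation between libraries, which may in part be technical.

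Growth hormone from the pituitary acts through GHR, a cytokine-type receptor at the cell surface that signals through the kinase JAK2 and the transcription factor STAT5. In the liver this signal drives production of IGF1, which circulates bound to IGF-binding proteins and acts on the IGF1 receptor to promote growth and survival of cells. The uterus also makes IGF1 of its own, chiefly in the stroma, where ovarian steroids are known to affect it. In dairy cows the pair is studied because the coupling of growth hormone to hepatic IGF1 weakens around calving, and because circulating IGF1 has been linked to the return of fertility. Both genes give rise to several transcripts with different first exons, and counts per gene do not separate them.

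Total counts per library ran from 20641141 to 23641397, and the ranges of the groups overlapped. Low fertility replicate 5 stood apart from the other libraries in its overall profile, at a score of 85.7 on the first principal component against 46.3 for the next of all 14. The values of IGF1 and GHR without it are given beside their ranges, spreads, fertility differences and mutual correlation. Replicate numbers follow accession order, serve only as names and pair no libraries.

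IGF1, the ligand, was detected in every library with 62 to 1080 reads. Levels are given as CPM, the count as a rate of the library total after composition scaling with TMM factors (trimmed mean of M values). In bulk tissue, fewer cells that express a gene and less RNA per cell cannot be told apart. In high fertility endometrium IGF1 ranged from 15.8 to 47.6 CPM with a median of 29.4, and in low fertility endometrium from 2.76 to 42.1 CPM with a median of 17.3. The groups overlapped widely: 2 of 7 high fertility libraries (replicates 5 and 6) lay above all low fertility libraries, and 2 of 7 low fertility libraries (replicates 4 and 5) lay below all high fertility libraries. Low fertility replicates 6 and 7, at 42.1 and 41.4 CPM, were close to the highest values of the high fertility group. Another 3 low fertility libraries lay together at 16.7 to 17.3 CPM, beside high fertility replicates 1 and 3 at 15.8 and 16.7 CPM. Low fertility replicate 4 followed at 9.0 CPM and replicate 5 at 2.76 CPM, the lowest of the 14.

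GHR, the receptor, was detected with 754 to 4215 reads. It ranged from 89.3 to 189 CPM with a median of 115 in high fertility libraries, and from 33.6 to 122 CPM with a median of 80.7 in low fertility libraries. All 7 high fertility libraries lay above the low fertility median, and 5 of 7 low fertility libraries lay below every high fertility library. The exceptions were low fertility replicate 4 at 122 CPM and replicate 7 at 115 CPM, which reached the middle of the high fertility range. High fertility replicates 6 and 2, at 189 and 160 CPM, were above all low fertility libraries. Replicate 5 of the low fertility group again had the lowest value. The groups did not separate for either member, whereas they did not overlap for 18 of 14929 tested genes, or 0.121%. Levels of IGF1 and GHR were not compared with each other, because the lengths of the gene models counted were not used here.

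**Figure D1:**
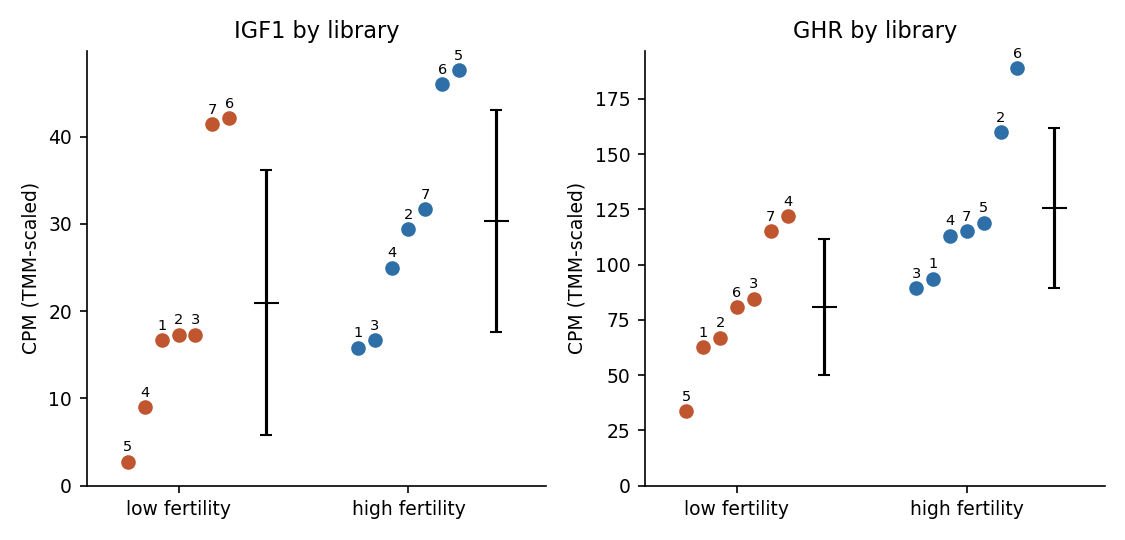
Levels of IGF1 and GHR in CPM for each library, with its replicate number, sorted by level within the low and high fertility groups; the bars beside the points give the mean and SD of 7 libraries. Both genes are lowest in low fertility replicate 5 (2.76 and 33.6 CPM), and the groups overlap for both.

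IGF1 was one of the more variable genes of this tissue. From the lowest to the highest library its level spanned 17.2-fold, against 5.61-fold for GHR. Both lows were low fertility replicate 5, and over the other 13 libraries the spans were 5.29-fold and 3.02-fold. Within groups the SD of IGF1 was 1.05 on the log2 CPM scale, above that of 96.2% of tested genes and above 98.1% of the 4910 other genes whose mean level was within 1 log2 unit. The SD of GHR was 0.52, above that of 73.9% of tested genes and of 90.6% of the 3712 other genes of like level. The median over all tested genes was 0.35. The SDs without low fertility replicate 5 were 0.74 for IGF1, above 90.6% of tested genes, and 0.39 for GHR, above 60.9%. Counting noise was small beside these spreads: it was 3.04 to 12.7% of the value for IGF1 and 1.54 to 3.64% for GHR, while the coefficients of variation between high fertility libraries were 42.0% and 28.8% and between low fertility libraries 72.5% and 37.8%.

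Both members had a wider spread among low fertility libraries, but not beyond what regrouping the values, centred on their group means, gave. The SD of log2 CPM of IGF1 was 0.63 in high and 1.34 in low fertility (difference -0.71, two-sided permutation p = 0.175). That of GHR was 0.39 in high and 0.62 in low fertility (difference -0.23, two-sided permutation p = 0.391). Without low fertility replicate 5 the SD of IGF1 in that group was 0.86 and that of GHR 0.39, the latter close to the high fertility value.

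The first question was whether IGF1 differed with fertility. Its mean level was 30.3 ± 12.7 CPM (SD, n = 7) in high and 20.9 ± 15.2 CPM (SD, n = 7) in low fertility libraries. This was a 1.45-fold higher level in high fertility by the fitted log2 change of 0.53 (SE 0.455), and the 95% interval ran from 0.741-fold to 2.83-fold. IGF1 did not pass the threshold of an adjusted p of 0.05 in the edgeR quasi-likelihood fit over all genes (unadjusted p = 0.258, Benjamini-Hochberg adjusted p = 0.807). The interval held no difference as well as differences of more than 2-fold. Of all tested genes, 94.2% had a smaller standard error than IGF1.

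How much IGF1 seemed to differ depended on the libraries and on the scale. On the log2 CPM scale its means were 4.81 and 3.97, a difference of 0.84 (exact two-sided permutation p = 0.142), larger than the fitted change of 0.53. That difference was 0.43 without low fertility replicate 5 (exact permutation p = 0.295) and 0.20 without replicates 4 and 5 of that group (exact permutation p = 0.562). Replicates 4 and 5 had the lowest IGF1 of all libraries, so leaving them out had to make the difference smaller. Without low fertility replicate 5 the fitted log2 change was 0.34, and without replicates 4 and 5 of that group it was 0.16 (edgeR adjusted p = 0.964 and 0.962). It was 0.80 and 0.79 without low fertility replicate 6 or 7, the libraries of that group with the highest IGF1. Limma-voom with quality weights per library gave the smallest unadjusted p for IGF1, 0.0410, with an adjusted p of 0.224. In that fit 20.7% of all genes had an unadjusted p under 0.05, and 18.3% had one at or under that of IGF1.

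GHR was higher in high fertility endometrium in mean and median, at 126 ± 36.2 CPM (SD, n = 7) against 80.6 ± 30.5 CPM (SD, n = 7). The fitted log2 change was 0.64 (SE 0.246), a 1.56-fold higher level with a 95% interval of 1.08-fold to 2.24-fold. Its unadjusted p by edgeR's quasi-likelihood test was 0.0199, a value under 0.05 that 6.77% of all tested genes shared. After Benjamini-Hochberg adjustment over 14929 genes GHR did not pass (edgeR adjusted p = 0.728). Only 5 genes did, or 0.0335% of those tested, and neither member was among them. By p-value GHR stood 372nd and IGF1 4770th. The absolute log2 change of GHR was larger than that of 95.3% of tested genes and that of IGF1 larger than 92.2%, where the median over all genes was 0.149 and the median signed change -0.002.

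The direction and size of the GHR difference varied little with the processing. Over 28 fits with other scalings, filters, tests and covariates or without 1 or 2 libraries, its log2 change was 0.51 to 0.76 and its unadjusted p was under 0.05 in 27. The exception was the fit without high fertility replicate 6, the library with the highest GHR, at an edgeR quasi-likelihood p of 0.0521 for GHR. These fits share most libraries and are not separate evidence, and in none of them did GHR pass after adjustment, the lowest adjusted p being 0.107 by limma-voom with quality weights. On the log2 CPM scale its means were 6.93 and 6.23, a difference of 0.70 (exact two-sided permutation p = 0.0181, not adjusted for the genes tested). Without low fertility replicate 5 that difference was 0.50 (exact permutation p = 0.0431). The fitted log2 change of GHR without that library was 0.51, the lowest of the 28 (edgeR unadjusted p = 0.0258, adjusted p = 0.930). For IGF1 the fitted change was also above 0 in 28 of 28 fits, at 0.16 to 0.85, with an unadjusted p under 0.05 in 1. Whether the changes of IGF1 and GHR differ from each other was not tested.

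**Figure D2:**
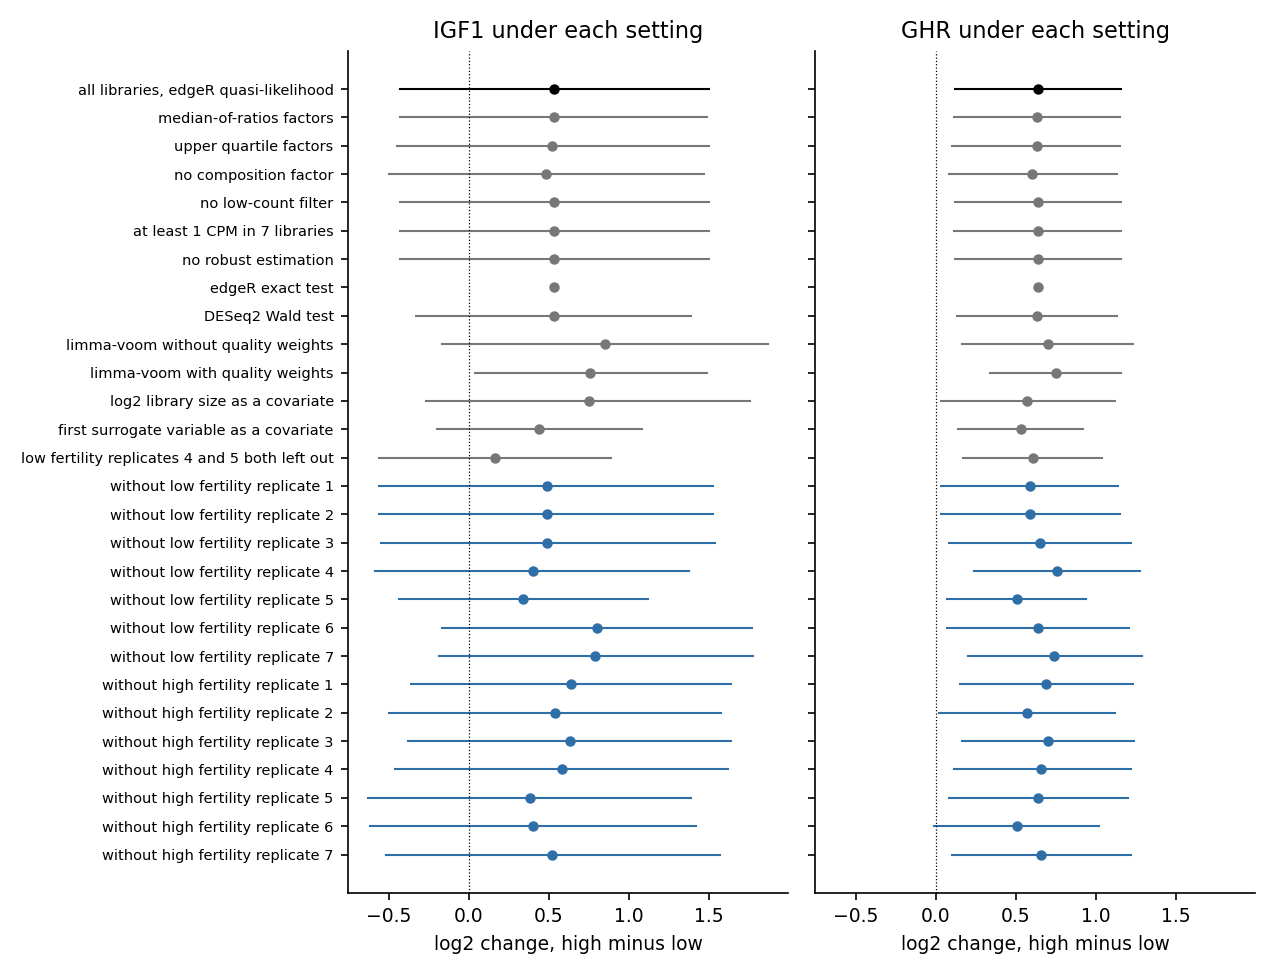
Fitted log2 change of IGF1 and GHR, high minus low fertility, with its 95% interval, under each setting: black is the edgeR quasi-likelihood fit of all 14 libraries, grey another method or set of libraries, and blue the fits without 1 library (the edgeR exact test gives no interval). The interval of IGF1 includes 0 in all but 1 of 27 fits that give one, and that of GHR lies above 0 in 26 of 27.

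The members were next set against each other. Over the 14 libraries log2 CPM of IGF1 and GHR were correlated, with a Pearson r of 0.73 (permutation p = 0.00526, adjusted p = 0.0160 over 9 relations) and a Spearman rho of 0.49 (permutation p = 0.0777, adjusted p = 0.121). High fertility replicate 6 was near the top for both genes and low fertility replicate 5 at the bottom for both. Low fertility replicate 4 went the other way, at rank 2 of 14 from the lowest for IGF1 and at rank 12 for GHR.

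That relation leaned on 1 library, low fertility replicate 5. Leaving out any other single library gave an r of 0.70 to 0.84 (permutation p = 0.00118 to 0.0145). Without low fertility replicate 5, r was 0.43 (permutation p = 0.140), and without replicate 4 of that group it was 0.84 (permutation p = 0.00118). Without both, which are also the libraries farthest from the median of IGF1, r was 0.64 (permutation p = 0.0261). With each fertility group centred on its own mean r was 0.67 (permutation p = 0.0103), and 0.33 when low fertility replicate 5 was also left out (permutation p = 0.262). Within the 7 high fertility libraries r was 0.74 (exact permutation p = 0.0613) and rho 0.79 (exact permutation p = 0.0480). Within the 7 low fertility libraries r was 0.66 (exact permutation p = 0.125) and rho 0.29 (exact permutation p = 0.556). In that group r was 0.93 without replicate 4 (exact permutation p = 0.0250) and -0.02 without replicate 5 (exact permutation p = 0.971). Those last exclusions left 6 libraries and were made after the values were seen. No p-value in this paragraph was adjusted. The difference between the groups' correlations was not tested.

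**Figure D3:**
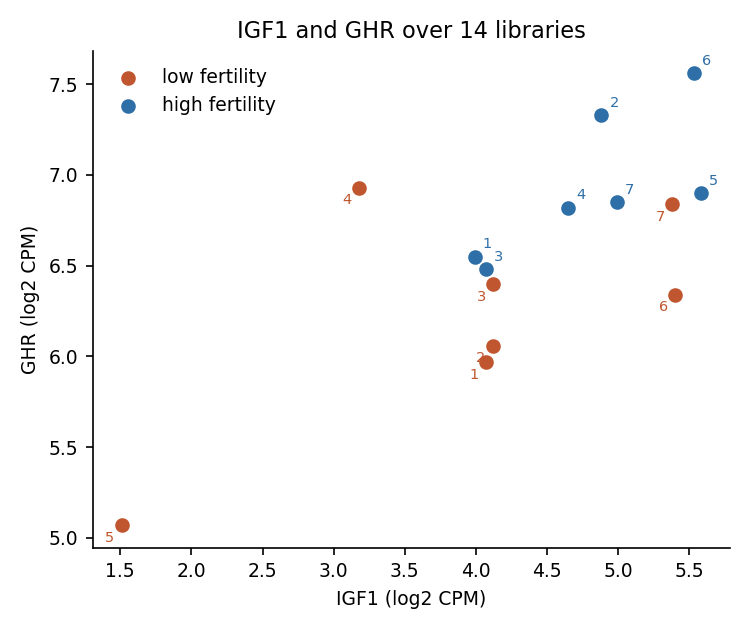
GHR against IGF1 in log2 CPM for the 14 libraries, with replicate numbers, low fertility in orange and high fertility in blue. Low fertility replicate 5 sits alone at the lower left and replicate 4 of that group above the other points of low IGF1; r was 0.73 over all points and 0.43 without replicate 5.

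IGF1 also followed the main axis along which the libraries differed. The first principal component of all other tested genes held 28.3% of their variance, with low fertility replicate 5 at one end (score 85.7) and high fertility replicate 6 at the other (-42.9). IGF1 fell along it with r = -0.88 (permutation p = 0.000180, adjusted p = 0.00162) and rho = -0.90 (permutation p = 5.00e-05, adjusted p = 0.000450). Without the libraries farthest out on that axis, low fertility replicate 5 and high fertility replicate 1, r was -0.78 (permutation p = 0.00158). GHR fell along the same axis with r = -0.69 (permutation p = 0.00886, adjusted p = 0.0160) and rho = -0.60 (permutation p = 0.0274, adjusted p = 0.0850). Without the same pair the r of GHR was -0.41 (permutation p = 0.186). The pair was left out only together, so the part of each library in this drop was not tested. The component was not recomputed without the pair, so the axis was still the one set by all libraries. After the part that followed this component was removed from both genes, the correlation of IGF1 with GHR was 0.36 (permutation p = 0.197).

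Both members also tracked the share of counts taken by the 10 most abundant genes, which was lowest in low fertility replicate 5 at 6.57% and highest in high fertility replicate 6 at 11.4%. With it r was 0.68 for IGF1 (permutation p = 0.00887, adjusted p = 0.0160) and 0.70 for GHR (permutation p = 0.00674, adjusted p = 0.0160). By rank neither held after adjustment, with rho 0.58 and 0.56 (permutation p = 0.0332 and 0.0378, adjusted p = 0.0850 for both). Without low fertility replicate 5 and high fertility replicate 6, left out only together, r was 0.23 for IGF1 and 0.22 for GHR (permutation p = 0.467 and 0.498). Library total had r = -0.08 with IGF1 and 0.33 with GHR, and the second component r = -0.16 and 0.36 (permutation p = 0.208 to 0.750). The part of library composition in the levels of IGF1 and GHR was not tested. When the first surrogate variable estimated from all genes entered the fit, the standard errors were smaller, and the log2 change was 0.44 (95% interval -0.20 to 1.08) for IGF1 and 0.53 (0.14 to 0.92) for GHR, with edgeR adjusted p of 0.703 and 0.523.

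**Figure D4:**
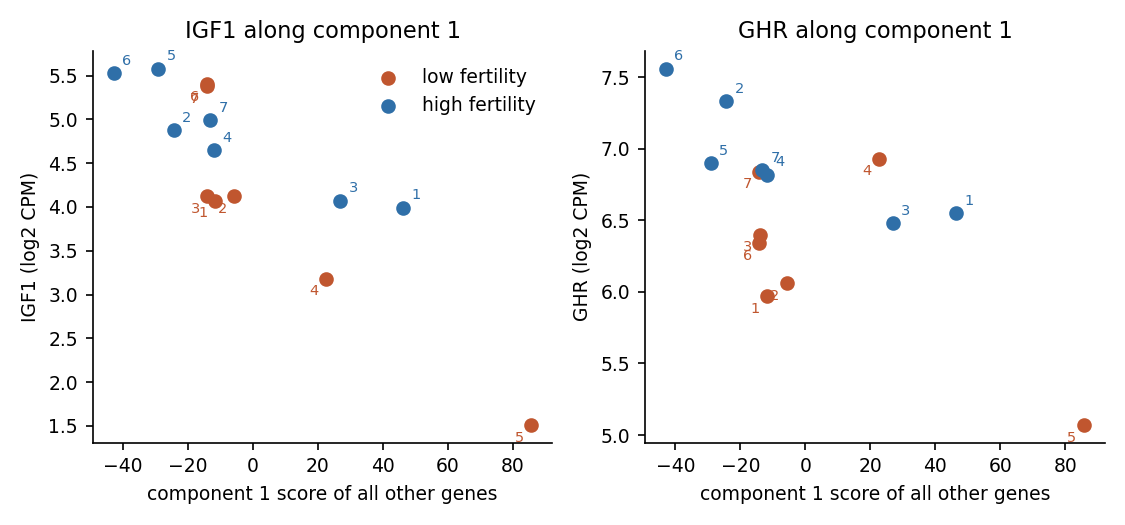
IGF1 and GHR in log2 CPM against each library's score on the first principal component of all other tested genes, with replicate numbers; the sign of the axis is arbitrary. IGF1 falls along the axis (r = -0.88), and GHR does so less closely (r = -0.69). Without low fertility replicate 5 and high fertility replicate 1, left out together and with the axis not recomputed, r was -0.78 for IGF1 and -0.41 for GHR.

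Many other genes had an r with IGF1, or with GHR, as high as that between the members. How common such an r is between other pairs of genes was not computed. Pearson r with IGF1 over the 14928 other tested genes ran from -0.97 to 0.98, with 5% of genes below -0.72 and 5% above 0.77. With GHR it ran from -0.93 to 0.91, with 5% below -0.68 and 5% above 0.70. The r of 0.73 between the members was thus inside these bounds for IGF1 and above the upper one for GHR. By this measure GHR was the 1038th gene most like IGF1, with 6.95% of genes at or above its r. IGF1 was the 512th gene most like GHR, with 3.43% at or above. Without low fertility replicate 5 these ranks were 2828 and 2551. An r over 0.7 was found with IGF1 for 1286 genes and with GHR for 760, and for 430 genes with both, which is 33.4% of the former and 56.6% of the latter. These counts were 847 and 210 without low fertility replicate 5, with 41 genes in both, or 4.84% and 19.5%. All these values come from the same 14 libraries and are a description.

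Among single genes, the 2 most like IGF1 over the 14 libraries were ENSBTAG00000021019 (r = 0.98) and ENSBTAG00000010178 (r = 0.97). Like IGF1 they were lowest in low fertility replicate 5, at 3.88 and 2.59 CPM, and highest in high fertility replicate 5, at 26.3 and 25.0 CPM. Their likeness to IGF1 held without low fertility replicate 5, at r = 0.95 and 0.94. The 2 genes most like GHR were ENSBTAG00000000205 and ENSBTAG00000011597 (r = 0.91 each), lowest in low fertility replicate 5 and highest in high fertility replicate 6, as GHR was. Without low fertility replicate 5 these had r = 0.84 and 0.83. ENSBTAG00000011597 was about as close to IGF1 as to GHR, with r = 0.90 with IGF1. None of the 4 passed for fertility in the edgeR quasi-likelihood fit, with log2 changes of 0.29 to 0.57 and Benjamini-Hochberg adjusted p of 0.728 to 0.805.

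**Figure D5:**
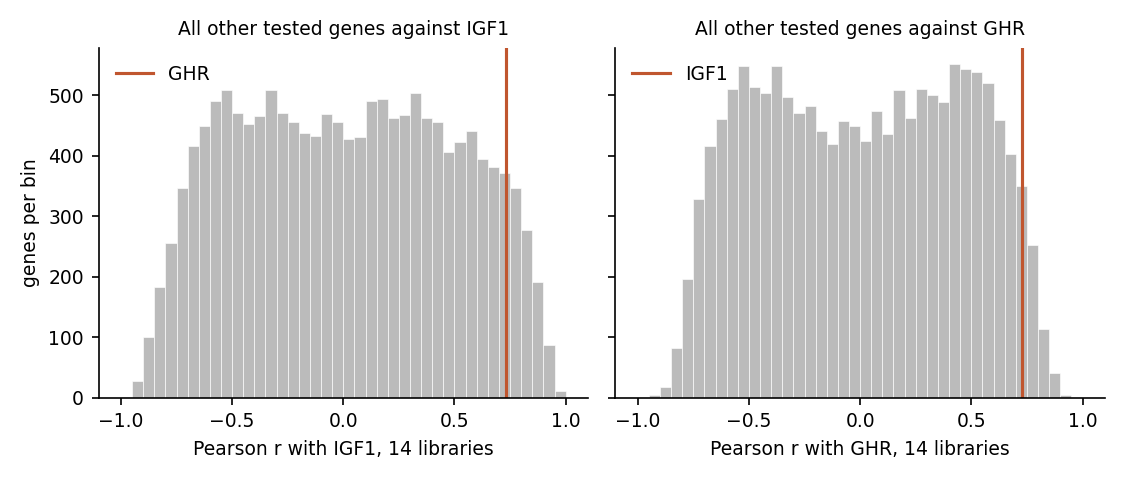
Number of genes by Pearson r with IGF1 (left) and with GHR (right) over the 14 libraries, in bins of 0.05; the line marks the other member at r = 0.73. Values spread widely on both sides of 0, with 1037 genes closer to IGF1 than GHR was and 511 closer to GHR than IGF1 was.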

How the data were processed

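Raw read counts per gene, as whole numbers without normalisation, were deposited by the authors as a series table and as 1 file for each sample, and 0 of the 217336 cells differed between them. Per the submitters' processing notes the tools were CASAVA 1.4, STAR, HTSeq 0.3p7 and edgeR, with genome build UMD3.1; their settings, the annotation and the use of strand were not given in the sources used. Tissue was snap-frozen and extracted with trizol, per the labels' protocols.

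The names IGF1 and GHR were taken as given with the identifiers. The reference table (ARS-UCD2.0, 37063 genes) lists both symbols but 0 Ensembl identifiers, so the pairing was not checked, other genes are given by identifier, and lists of pathway genes and cell type markers were not run, nor was the labelled tissue checked against markers. No sequence is shown. The members and lists were chosen with earlier results of these data known.

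Counts were fitted in R 4.3.3 with edgeR 4.0.16: filterByExpr (14929 genes kept), TMM, robust quasi-likelihood fits of high minus low fertility without covariates, and a two-sided Benjamini-Hochberg adjusted p threshold of 0.05 over all genes. Standard errors were worked back from the F statistic. Log2 CPM used a prior count of 2. Alternatives used DESeq2 1.42.0, limma 3.58.1, sva 3.50.0, other scalings and filters, and fewer libraries. Correlations were tested two-sided with 100000 resamples over 12 to 14 libraries, or with all 5040 pairings of 7 or 720 of 6. Adjustment covered 9 relations over all 14 libraries. These were IGF1 with GHR, and each of them with library total, the share of the 10 most abundant genes in all counts and 2 principal components. Group differences in mean and SD used all 3432 splits of 7 against 7, whose smallest p is 0.000583. For the SD, values were first centred on their group mean, so that its p is approximate. The test of mean log2 CPM and the correlations within a group by Spearman or without 1 library, and the ranges, SDs, centred correlation and counts of like genes without low fertility replicate 5, were chosen after seeing the data. The 2 genes named as most like each member had the highest Pearson r of log2 CPM. Scripts were tested on simulated data. Every pair of libraries differed by more than counting noise (lowest chi-square per degree of freedom 32.1 over 91 pairs). Depth limits precision by counting noise only, and counts per gene cannot show reads lost to or gained from overlapping genes.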

Additional observations from a re-analysis of the deposited data

Results flagged for a closer look

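Dixon's test for a value that stands apart was run on 12 sets of 7 values: IGF1, GHR, library total, the share of the 10 most abundant genes and 2 principal components, in each fertility group. It marked 2 of them, and about 1 set in 20 is marked by chance. On the first component low fertility replicate 5, the library with the lowest IGF1 and GHR, scored 85.7, and the library nearest to it in that group scored 22.6. The total of low fertility replicate 6 was 20641141 counts, below the 22334326 of the next library. Its IGF1 was the highest of the low fertility group, at 42.1 CPM. No library was marked for IGF1 or GHR themselves in CPM.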

How the results depend on the processing

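For IGF1 and GHR the difference by fertility stayed above 0 and short of the threshold in all 27 alternative fits. The difference in spread of IGF1 stayed below 0 and short of the threshold in 17 of 17 alternatives. That of GHR turned to 0.05 without low fertility replicates 4 and 5 (permutation p = 0.688). The permutation tests of mean log2 CPM kept their side of 0.05 in 17 of 17 alternatives for each gene. The correlation of IGF1 and GHR no longer had a permutation p under 0.05 by Spearman (0.49), within high fertility (0.74), within low fertility (0.66, Spearman 0.29), after component 1 (0.36), or centred by group without low fertility replicate 5 (0.33), and it turned to -0.02 within low fertility without replicate 5. Leaving out 1 library gave 0.43 to 0.84, and 1 of these, without low fertility replicate 5 (0.43, permutation p = 0.140), also had no p under 0.05. The number of genes past the threshold, 5 by edgeR's quasi-likelihood test, was 3 with upper quartile factors or no composition factor, 9 by edgeR's exact test, 19 by DESeq2, 8 by limma-voom with quality weights and 1 without, 1 with library size as a covariate, and 2 without low fertility replicates 4 and 5. Without 1 library it was 0 to 5, with 732 to 1825 genes at an unadjusted p under 0.05. The cause was not tested.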
